A study of Mus musculus with 3 samples.

Results

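Lysophospholipid acyltransferases put a new fatty acid onto a phospholipid that has lost one, and Pcyt1a makes the activated choline from which new phosphatidylcholine is built. The 9 genes described were taken by their symbols: Lpcat3, Mboat1, Mboat2 and Mboat7 of the MBOAT family of membrane-bound O-acyltransferases, Lpcat1, Lpcat2, Lpcat4 and Lclat1 of the acylglycerolphosphate acyltransferase (AGPAT) family, and Pcyt1a. Each of the 9 had 1 probe set with a single gene name, out of 18820 genes measured that way. They were followed in RAW264.7 cells, a transformed mouse macrophage-like line, given palmitate, elaidate or oleate, each for 6 hours at 500 µM on fatty acid-free albumin at a ratio of 2 fatty acid molecules to 1 albumin. Palmitate is a saturated fatty acid, elaidate is the trans isomer of oleate, and oleate is the cis monounsaturated one. All 3 groups shared the medium with serum, the albumin carrier and the alkaline, ethanol-based preparation of the fatty acid. Cells on albumin without fatty acid were not analysed here. There was 1 array per fatty acid, so no value below has a replicate error and no test of a fatty acid was possible. Every difference compares 1 array with 1 other array.

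Much of the phosphatidylcholine and phosphatidylethanolamine of cell membranes is made by the Kennedy pathway. Membrane phospholipids are then remodelled in the Lands cycle, in which phospholipases remove an acyl chain and lysophospholipid acyltransferases attach another. Each acyltransferase prefers certain head groups and acyl chains, so the set of enzymes in a cell bears on how saturated its membranes are. In macrophages the cycle also stores and releases arachidonate and makes platelet-activating factor. These are background facts and no lipid was measured here.

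Values are log2 expression values of the deposited table, and a difference of 1 is 2-fold. The values had medians of 3.61 with palmitate, 3.58 with elaidate and 3.57 with oleate over 35556 probe sets. Genes whose mean over the arrays reached 4.14, the median of all genes, numbered 9410 and formed the background of all counts. Of the 9 genes, 8 passed this filter and Mboat2 did not. Many values in the table were exactly the same on several arrays: 27.5% of the 9410 genes were equal on all 3, to within 1e-06. An equal value says that the deposited summary gave no difference, not that the transcript level was the same. Macrophage markers were present, with 10 of 10 past the filter and a median log2 value of 10.44 with palmitate, 10.74 with elaidate and 10.78 with oleate. Of 16 markers of fibroblasts, hepatocytes or adipocytes, lymphocytes, epithelium and endothelium, 15 were measured and 4 passed the filter, with values of at most 5.00 with palmitate, 5.03 with elaidate and 5.03 with oleate. In bulk RNA, a smaller number of cells with a transcript and less of it per cell cannot be told apart.

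The stretches of DNA just before the start of 4 of the genes are printed as examples, which do not cover every pattern seen. Mboat1 and Lpcat1 were at least 2-fold lower with palmitate than with oleate. Lpcat3 was highest on the elaidate array, and Pcyt1a was equal on all 3. The stretches are RefSeq sequences of the mouse build GRCm38.p6, matched by symbol, 5′ to 3′. Up to 250 bases before the annotated start are shown, ending where the gene itself begins. Capitals mark matches on either strand to the GC box GGGCGG, the CCAAT box CCAAT, the E-box CACGTG, a sterol element TCACNCCAC, and an ATF4 composite element TGATGNAA. A direct repeat of AGGTCA with 4 bases between, the form bound by liver X receptors (LXR), was searched in the same way.
Mboat1, chr13:30136240-30136450, plus strand: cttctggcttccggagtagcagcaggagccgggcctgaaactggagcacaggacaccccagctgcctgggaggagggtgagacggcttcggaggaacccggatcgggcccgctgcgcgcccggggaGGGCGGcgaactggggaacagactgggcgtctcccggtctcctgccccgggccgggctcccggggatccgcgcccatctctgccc
Lpcat1, chr13:73466981-73467230, plus strand: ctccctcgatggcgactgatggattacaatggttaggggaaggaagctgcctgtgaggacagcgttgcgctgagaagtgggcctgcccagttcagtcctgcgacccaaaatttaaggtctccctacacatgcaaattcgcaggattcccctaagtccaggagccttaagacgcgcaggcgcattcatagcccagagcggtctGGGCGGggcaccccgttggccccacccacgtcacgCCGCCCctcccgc
Lpcat3, chr6:124662854-124663093, plus strand: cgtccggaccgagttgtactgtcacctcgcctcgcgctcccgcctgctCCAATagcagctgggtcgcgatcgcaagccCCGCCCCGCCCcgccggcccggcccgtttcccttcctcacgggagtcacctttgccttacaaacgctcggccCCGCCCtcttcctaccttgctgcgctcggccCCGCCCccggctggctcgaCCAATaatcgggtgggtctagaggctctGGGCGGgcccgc
Pcyt1a, chr16:32430671-32430920, plus strand: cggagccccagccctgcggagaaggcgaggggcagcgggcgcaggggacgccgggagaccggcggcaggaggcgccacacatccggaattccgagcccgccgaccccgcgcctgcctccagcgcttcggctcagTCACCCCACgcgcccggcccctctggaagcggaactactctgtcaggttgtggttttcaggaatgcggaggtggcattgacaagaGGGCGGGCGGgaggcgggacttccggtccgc

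All 9 genes matched a promoter entry. In the 250-base windows Mboat1 held 1 GC box, Lpcat1 held 2, Lpcat3 held 5 and the first window of Pcyt1a held 2, of which neighbouring matches in Lpcat3 and in Pcyt1a overlap. GC boxes occur in 32.7% of the 32851 windows of the table. Lpcat3 held 3 CCAAT boxes and Mboat1 held 1, beside 33.8% of all windows with at least 1. The last CCAAT box of Lpcat3 and that of Mboat1 lie past the printed stretch. That window of Pcyt1a held 1 sterol element, in the plus orientation, which 1.05% of all windows hold. RefSeq gives Pcyt1a 3 windows; the second overlaps the first and holds the same matches, and the third, inside the gene, holds 0 GC boxes and 0 sterol elements. None of the windows of these 4 genes held the E-box, found in 6.02% of all windows, the ATF4 composite element, found in 3.45%, or the direct repeat, found in 0.0152%. A match in letters is a description and not a binding site.

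Among the MBOAT enzymes, Mboat1 was far lower on the palmitate array than on either of the others, and Lpcat3 stood out on the elaidate array. Mboat1, which puts oleoyl chains on lysophosphatidylethanolamine and lysophosphatidylserine, had log2 values of 5.65 with palmitate, 6.96 with elaidate and 7.12 with oleate. The palmitate value was set apart, and the elaidate and oleate values lay close together. Palmitate minus oleate was -1.47 and palmitate minus elaidate was -1.31, so that the palmitate level was 36.0% of the oleate level and 40.4% of the elaidate level. Elaidate minus oleate was -0.17. Of the 9410 genes, 32 had a lower palmitate minus oleate difference than Mboat1 and 34 had a lower palmitate minus elaidate difference.

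Lpcat3, which loads polyunsaturated chains onto phosphatidylcholine and phosphatidylethanolamine and is a known LXR target in mice, had log2 values of 9.74 with palmitate, 10.25 with elaidate and 9.77 with oleate. Its pattern differed from that of Mboat1, with elaidate high and the other pair nearly alike. Elaidate minus oleate was 0.48, or 1.39-fold, and 113 of the 9410 genes had a higher value in that comparison. Palmitate minus elaidate was -0.51 and palmitate minus oleate -0.03. The middle 95% of the 9410 genes ran from -0.23 to 0.33 in elaidate minus oleate, and the Lpcat3 difference lay above that range. None of its 3 differences reached 2-fold.

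Mboat7 transfers arachidonate to lysophosphatidylinositol. Its log2 values were 6.04 with palmitate, 6.44 with elaidate and 6.44 with oleate, with elaidate and oleate equal. Palmitate was lower by a difference of -0.40 against each of them, inside the range of -0.76 to 0.81 that held the middle 95% of genes for palmitate minus oleate. Mboat2, which acts on lysophosphatidylcholine and lysophosphatidylethanolamine with oleoyl chains, had 1.93 with palmitate, 2.01 with elaidate and 2.01 with oleate. These values lie below the filter, and its difference of -0.08 is not read as a change.

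**Figure D1:**
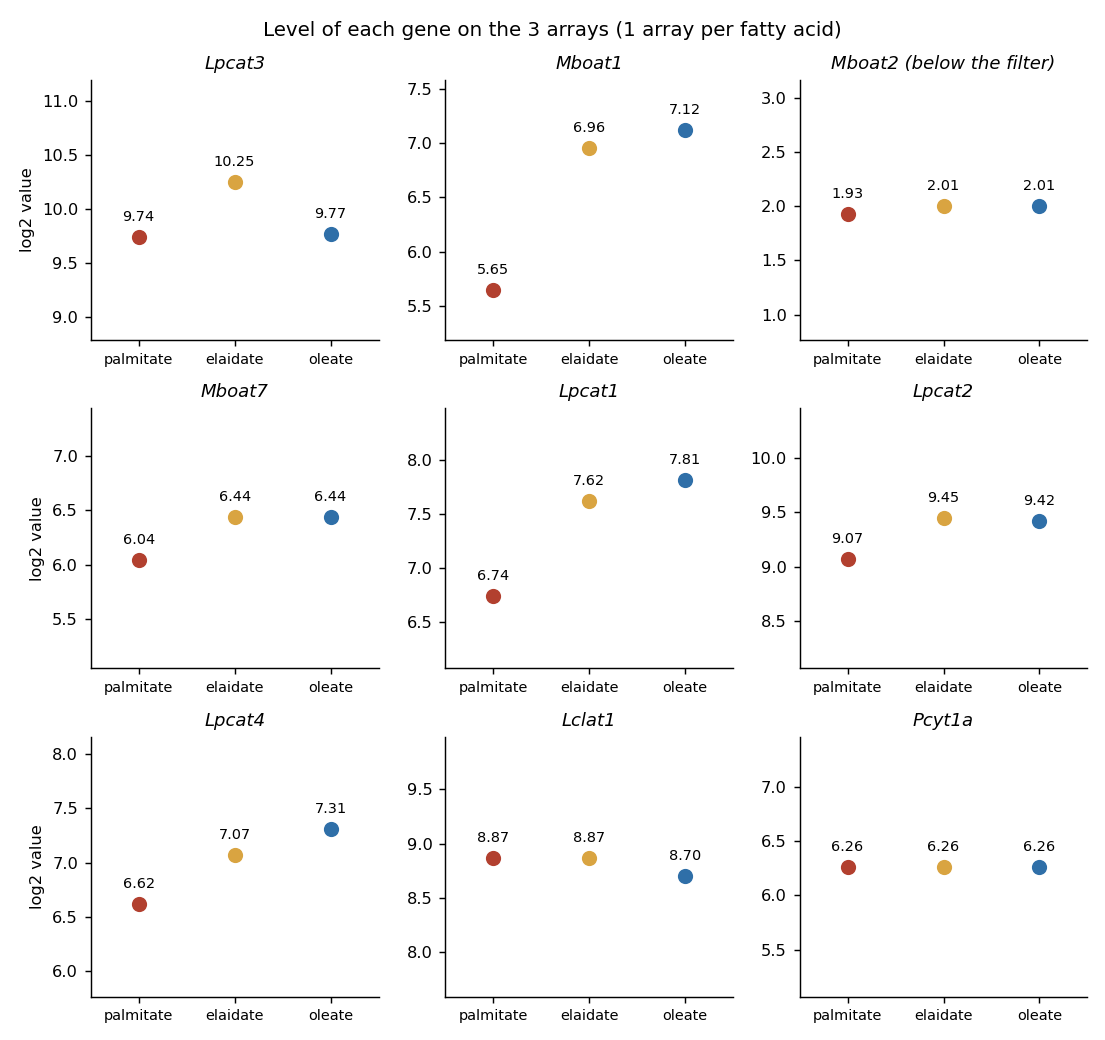
Log2 expression value of each of the 9 genes (vertical axes, each spanning 2.4 log2 units around its own gene) on the palmitate, elaidate and oleate arrays; each point is 1 array and has no error bar. Mboat1 and Lpcat1 are lowest on palmitate at 5.65 and 6.74, Lpcat3 is highest on elaidate at 10.25, and Pcyt1a is 6.26 on all 3.

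In the AGPAT family the palmitate array was lowest for 3 genes and not for Lclat1. Lpcat1, which favours saturated chains and makes the dipalmitoyl phosphatidylcholine of lung surfactant, had log2 values of 6.74 with palmitate, 7.62 with elaidate and 7.81 with oleate. As with Mboat1, palmitate was set apart while elaidate lay slightly under oleate. Palmitate minus oleate was -1.07, a level of 47.5% of that on the oleate array, and palmitate minus elaidate was -0.88, which is short of 2-fold. Elaidate minus oleate was -0.19. In palmitate minus oleate 96 of the 9410 genes had lower values than Lpcat1.

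Lpcat4, an acyltransferase of lysophosphatidylethanolamine, had log2 values of 6.62 with palmitate, 7.07 with elaidate and 7.31 with oleate, the same order as for Mboat1 and Lpcat1. Its differences were -0.69 for palmitate minus oleate, -0.46 for palmitate minus elaidate and -0.23 for elaidate minus oleate. The last of these lay just under the middle 95% of genes, with 224 of 9410 genes lower. The palmitate minus oleate difference lay inside the middle 95%, from -0.76 to 0.81. So did palmitate minus elaidate, where it ran from -0.74 to 0.68. Lpcat2, the acyltransferase that makes platelet-activating factor in activated macrophages, had 9.07 with palmitate, 9.45 with elaidate and 9.42 with oleate. Palmitate was lower than both, with palmitate minus oleate at -0.35 and palmitate minus elaidate at -0.38, and elaidate minus oleate was 0.03. Each of these Lpcat2 differences lay inside the middle 95% of genes.

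Lclat1, an enzyme of cardiolipin and phosphatidylinositol remodelling, went the other way from its relatives in palmitate minus oleate. Its log2 values were 8.87 with palmitate, 8.87 with elaidate and 8.70 with oleate, with the first pair equal. The difference of 0.17 from oleate was 1.12-fold. In palmitate minus oleate 1528 of the 9410 genes were higher than Lclat1, so the value sits well inside the spread of all genes.

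Pcyt1a, the rate-limiting enzyme of the choline branch of the Kennedy pathway, had a log2 value of 6.26 with palmitate, 6.26 with elaidate and 6.26 with oleate. It was the 1 gene of the 8 past the filter with the same value on all 3 arrays, as 27.5% of the background genes had.

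Counted together, the 8 genes past the filter leaned towards lower values on the palmitate array. The palmitate array was below the oleate array for 6, above it for 1 and equal to it for 1. The 6 include Lpcat3, at only -0.03. The median difference was -0.37, beside 0 over the 9410 genes, of which 36.8% were lower. Over all 9 measured genes the median was -0.35. With a filter at the 75th percentile, which kept 4 of the genes and not Mboat1, the median was -0.19, and 1 gene passed 2-fold against oleate and 0 against elaidate. With the filter at the median, 2 of the 8 passed 2-fold, Mboat1 and Lpcat1, both lower, beside 1.22% of all genes 2-fold lower and 2.87% called 2-fold in either direction. Lpcat4 was next, so that 3 of the 8 passed 1.5-fold, beside 9.3% of all genes.

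Against elaidate, palmitate was lower for 6 of the 8 and equal for 2. The median of palmitate minus elaidate was -0.43, beside 0 over all genes, of which 37.9% were lower. Only Mboat1 passed 2-fold, beside 0.871% of genes 2-fold lower and 1.85% in either direction. Mboat1 and Lpcat1 passed 1.5-fold, beside 7.61%. The comparison shares the palmitate array with palmitate minus oleate, so the 2 counts are not separate evidence. Elaidate was above oleate for 3 genes, below it for 3 and equal to it for 2, beside 31.5%, 24.3% and 44.1% of all genes. The median difference was 0. No gene of the 8 passed 2-fold, beside 0.106% of all genes, or 1.5-fold, beside 0.786%. No gene of the 8 passed 3-fold in any comparison, beside 0.861% of genes for palmitate minus oleate, 0.51% for palmitate minus elaidate and 0% for elaidate minus oleate.

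**Figure D2:**
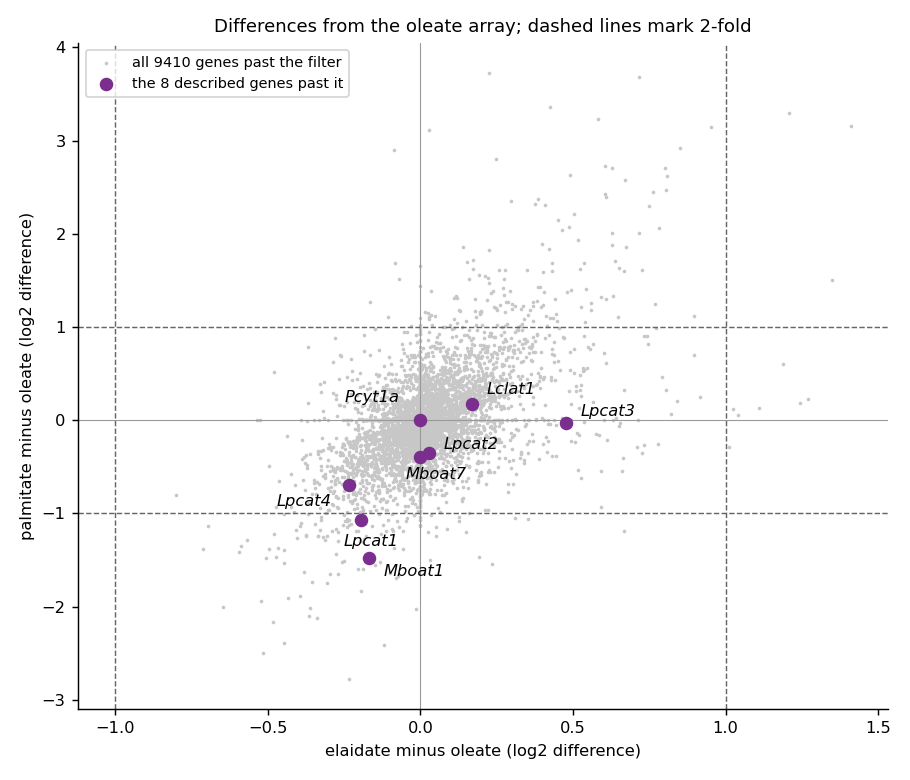
Log2 difference of elaidate minus oleate (horizontal) against palmitate minus oleate (vertical) for the 9410 genes past the filter in grey and the 8 described genes past it in purple; both axes share the oleate array, so the slant of the cloud is no result. Mboat1 and Lpcat1 lie under the lower dashed line of 2-fold, at -1.47 and -1.07, and Lpcat3 lies to the right at 0.48 and -0.03.

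The order of the arrays divided the genes further. The palmitate array held the lowest value for 6 of the 8, beside 32.7% of the 9410 genes. Palmitate below elaidate below oleate was the order for Mboat1, Lpcat1 and Lpcat4, 3 of the 8, beside 13.7% of all genes. Elaidate held the highest value for Lpcat3 and Lpcat2, 2 of the 8, beside 14.8% of all genes. For Lpcat2 elaidate and oleate differed by 0.03, and for Lpcat3, among the 6 lowest on palmitate, palmitate minus oleate was -0.03. Whether either exceeds array error was not tested.

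Macrophage markers were also lower on the palmitate array. This held for 9 of 10 markers against oleate, beside 36.8% of all genes, the remaining 1 being equal. The median of palmitate minus oleate was -0.41, beside 0 over all genes. The efferocytosis receptor gene Mertk, at -2.10, and C1qa of the complement system, at -1.48, passed 2-fold. Of all genes 1.22% were 2-fold lower and 2.87% differed 2-fold in either direction. The summed log2 value of all 10 macrophage markers was 93.0 with palmitate, 97.9 with elaidate and 99.6 with oleate. For the 15 measured markers of other cell types the sum was 52.6 with palmitate, 52.5 with elaidate and 52.5 with oleate. Only 4 of these 15 passed the filter, so this sum rests mostly on low values and is no control. The part of the macrophage markers' shift in the values of Mboat1 and Lpcat1 was not tested.

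Genes with patterns nearest to those of Mboat1 and Lpcat1 were found by Euclidean distance over 2 differences from the oleate array, which rests on 3 arrays in all. Nearest to Mboat1 were E2f8 and Ccne1, a transcription factor and a cyclin of the cell cycle, at distances of 0.062 and 0.083, followed by Mmd, Igfbp4 and Adcy7 at up to 0.12. E2f8 had log2 values of 6.44 with palmitate, 7.83 with elaidate and 7.97 with oleate. Nearest to Lpcat1 were Wdfy2, Nectin1, Tiam1, Dglucy and Stk17b, at distances of 0.041 to 0.055. For Lpcat3, added after its values were seen, the nearest were Arap2 and the fatty acid elongase gene Elovl5 at 0.033 and 0.037, then Efr3b, Pik3r3 and Mr1. Arap2, the nearest, had log2 values of 5.58 with palmitate, 6.05 with elaidate and 5.58 with oleate. Elovl5 had 9.54 with palmitate, 10.03 with elaidate and 9.58 with oleate.

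Other enzymes that acylate glycerophosphate or lysophospholipids were mostly lower on the palmitate array too, by less at the median. Of 11 listed genes 9 were measured and 8 passed the filter. Palmitate was above oleate for 2 and below it for 6, the same number below as among the 8 described genes, beside 36.8% of all genes. The median difference was -0.12, beside -0.37 for the described genes, and that contrast was not tested. The 1 past 2-fold was Gpat3, a glycerol-3-phosphate acyltransferase, in the opposite direction, at 1.65. Gpat3 had log2 values of 5.41 with palmitate, 3.76 with elaidate and 3.76 with oleate, so it passed the filter through its palmitate value alone. Agpat4 at 0.71 was also higher, while Agpat2 at -0.51 and Lpgat1, an acyltransferase of lysophospholipids, at -0.49 were lower. Of the other proteins with the MBOAT fold, Porcn and Dgat1, the 2 of 5 measured genes past the filter, were equal on all 3 arrays.

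The genes around Pcyt1a form the choline and ethanolamine branches of phospholipid synthesis. Of 12 listed genes 11 were measured and 10 passed the filter. Palmitate was above oleate for 2 of them, below it for 2 and equal to it for 6, beside 30.9%, 36.8% and 32.3% of all genes. The median difference was 0, and none of the 10 passed 2-fold, which is near the 2.87% of all genes that did. The choline transporter Slc44a1 was lowest at -0.63, with log2 values of 5.85 with palmitate, 6.33 with elaidate and 6.48 with oleate. The choline kinase Chka and the phosphotransferase Cept1 stood at 0.23 each. Elaidate was above oleate for 6, below it for 1 and equal to it for 3, beside 31.5%, 24.3% and 44.1% of all genes. The highest was Pcyt2, the ethanolamine counterpart of Pcyt1a, at 0.58. Pcyt2 had log2 values of 7.82 with palmitate, 8.54 with elaidate and 7.96 with oleate. It was highest on elaidate like Lpcat3, as were 14.8% of all genes.

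LXR targets included genes that were higher on the palmitate array than on the others, which Lpcat3 was not. They also included Scd2, named after its values were seen, which like Lpcat3 was highest on the elaidate array. Elaidate held the highest value for 14.8% of all genes. The sterol exporter genes Abcg1 and Abca1 stood at 1.34 and 0.89 in palmitate minus oleate, where Lpcat3 stood at -0.03. In palmitate minus elaidate Abca1 stood at 1.17 and Abcg1 at 1.07, where Scd2 stood at -0.48 and Lpcat3 at -0.51. Of 6 genes of the list past the filter, palmitate was above oleate for 4 and equal to it for 2, beside 30.9% and 32.3% of all genes. The 2 equal ones were Nr1h3, a gene of the receptor itself and not a target, and Srebf1. Mylip, among the 4, stood at 0.68. Palmitate was above elaidate for 3, below it for 1 and equal to it for 2, beside 27.9%, 37.9% and 34.2% of all genes. In elaidate minus oleate Abcg1 was 0.27, Abca1 -0.28 and the desaturase gene Scd2 0.80, beside 0.48 for Lpcat3. Whether Lpcat3 differs from LXR targets or resembles any of them was not tested.

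**Figure D3:**
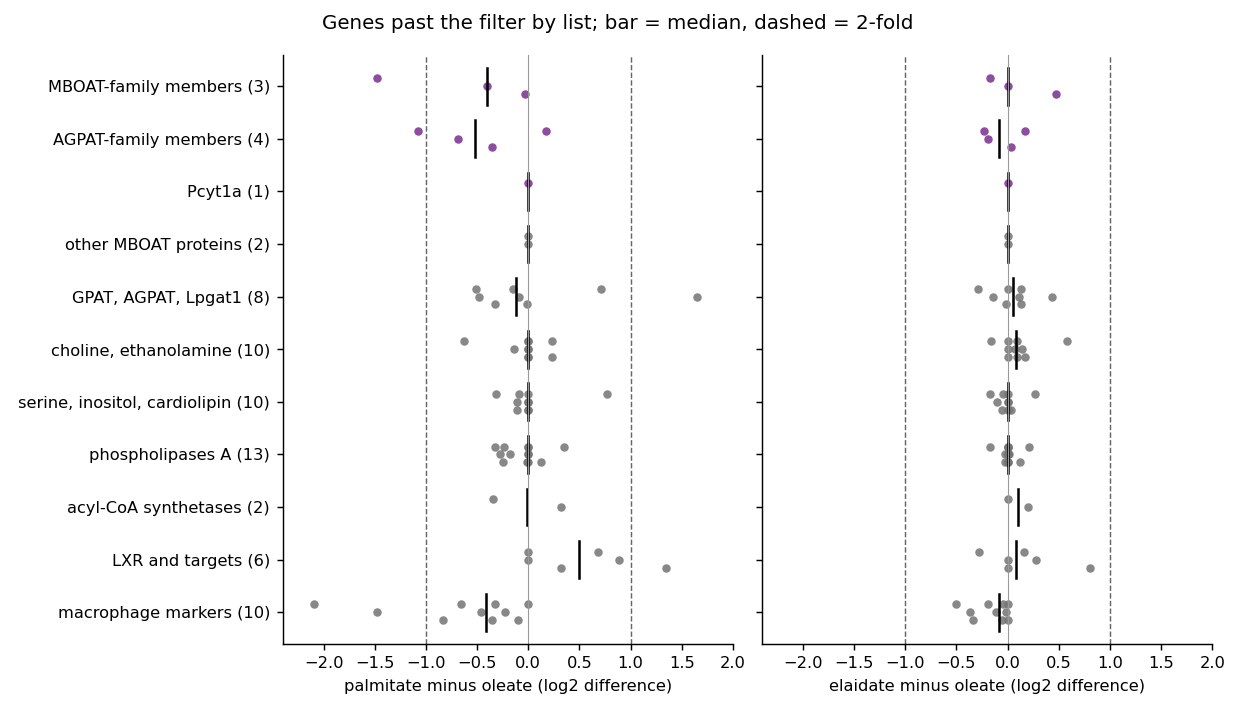
Log2 differences of the genes past the filter in each list, for palmitate minus oleate on the left and elaidate minus oleate on the right; each point is a gene, the number of genes is in brackets, black bars are medians and dashed lines mark 2-fold. The MBOAT and AGPAT members have medians of -0.40 and -0.52 on the left, and the macrophage markers -0.41, while the choline and ethanolamine genes have a median of 0.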

How the data were processed

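Biotin-labelled total RNA was hybridised to Affymetrix whole-transcript arrays, 1 per fatty acid, per the labels' protocols. Whether an array holds 1 well or pooled wells is not stated in the labels. The deposited log2 values, 1 per probe set, were made with RMA, which corrects background, normalizes between arrays and summarises probes, per the submitters' processing notes. The log2 scale was inferred from the values' range, since no scanner values were used here. The RMA version and the genome build are not given in the sources used here. Centring was left as deposited, and arrays have no read depth.

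Of 35556 probe sets, 21218 had 1 gene symbol in the platform annotation, 1881 had several and 12457 were not named there. Symbols were updated through gene identifiers, of which 21185 matched RefSeq. Probe sets of 1 gene were averaged. The 3 arrays were compared in pairs, as palmitate or elaidate minus oleate and as palmitate minus elaidate, and a gene was called at 2-fold or more, with no p-value.

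Groups came from the labels' titles. The 9 genes, the gene lists and the motifs were chosen with earlier results of these data known. By the rule for named genes, every gene of a list at least 2-fold different was named, otherwise the 2 to 4 furthest from 0 in palmitate minus oleate, and the 5 genes nearest in pattern to each called gene, leaving out predicted, small RNA and olfactory or vomeronasal receptor genes. Agpat2, Agpat4, Lpgat1, Scd2 and the neighbours of Lpcat3 were added after their values were seen.

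Alternatives were 3 other filters, limits of 1.5-fold and 3-fold, centring of arrays, cyclic loess (limma 3.58.1, R 4.3.3, span 0.7, 3 iterations) and the probe set with the highest mean. The counting step was tested on simulated data. Python 3.11.15, numpy 2.4.6, pandas 2.3.3 and matplotlib 3.10.9 were used.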

Additional observations from a re-analysis of the deposited data

How the results depend on the processing

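The 27 differences of the 9 genes were recomputed with each array centred on its median and after cyclic loess, and taking the probe set with the highest mean changed none of them because each gene has 1. All 27 under centring and all 27 under loess stayed on their side of 2-fold. They moved by less than the standard deviation of differences among genes below the filter. That was 0.075 and 0.072 for palmitate against oleate and against elaidate, and 0.062 for elaidate against oleate. Among genes past the filter it was 0.38, 0.33 and 0.13 in the same order. Neither spread is a replicate error, which 1 array per fatty acid cannot give. Centring moves every gene of a comparison by the same amount, here -0.040, -0.028 and -0.012 in that order. Its 27 outcomes were therefore not separate checks. Palmitate minus oleate ranged from -1.51 to -1.47 for Mboat1 and from -1.11 to -1.07 for Lpcat1. Values equal between arrays took a small sign: with centring, all 8 genes past the filter were lower in palmitate minus elaidate and 7 in palmitate minus oleate. The medians over all genes moved too, to -0.028 and -0.040. Before centring 34.2% and 32.3% of all genes were equal in these comparisons. With loess 6 of the 8 were lower and 2 higher in both comparisons. A filter at the 75th percentile kept 4 of the genes and dropped Mboat1, which left 1 gene past 2-fold in palmitate minus oleate and 0 in palmitate minus elaidate, with medians of -0.19 in palmitate minus oleate and 0.10 in elaidate minus oleate. Called genes among all those past that filter numbered 157 for palmitate against oleate and 96 against elaidate, beside 270 and 174 with the filter at the median. A limit of 1.5-fold gave 3 genes for palmitate against oleate and 2 against elaidate, and a limit of 3-fold gave 0 in both. Over all genes the 1.5-fold and 3-fold limits gave 875 and 81 for palmitate against oleate, 716 and 48 for palmitate against elaidate, and 74 and 0 for elaidate against oleate, beside 270, 174 and 10 at 2-fold. No paired analysis was possible because each fatty acid has 1 array. How far any of these differences exceeds the variation between cultures was not tested.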

Other observations

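Phospholipases of the A type and lysophospholipases form the deacylating side of the Lands cycle. Of 17 listed phospholipase A and lysophospholipase genes 16 were measured and 13 passed the filter, and none of these reached 2-fold in any comparison. That is near the background of 2.87% of all genes for palmitate against oleate, 1.85% for palmitate against elaidate and 0.106% for elaidate against oleate. Palmitate was above oleate for 2, below it for 6 and equal to it for 5, beside 30.9%, 36.8% and 32.3% of all genes, and the median difference was 0. Pnpla8, a calcium-independent phospholipase, stood at 0.34, Abhd12, a lipase of lysophosphatidylserine, at -0.33, Lypla2 at -0.28 and the lysosomal phospholipase gene Pla2g15 at -0.25. The acyl-CoA synthetase genes, which supply the activated fatty acids, had 5 listed members, of which 3 were measured and 2 passed the filter. Acsl4, which favours arachidonate, had log2 values of 9.86 with palmitate, 9.74 with elaidate and 9.54 with oleate. Acsl5 had 9.40 with palmitate, 9.74 with elaidate and 9.74 with oleate.

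Genes for serine, inositol and cardiolipin phospholipids included 1 of 10 with palmitate above oleate, beside 30.9% of all genes. Crls1, the cardiolipin synthase, had log2 values of 7.07 with palmitate, 6.58 with elaidate and 6.30 with oleate, a palmitate minus oleate difference of 0.76. Of the other 9 genes of that list, palmitate was below oleate for 4 and equal to it for 5, beside 36.8% and 32.3% of all genes. The lowest was Pgs1 at -0.31, which makes the phosphatidylglycerophosphate precursor of cardiolipin. Lclat1, the cardiolipin remodelling enzyme, stood at 0.17 in the same comparison. None of the 10 passed 2-fold in any comparison, which is again near the background. That was 2.87% of all genes for palmitate against oleate, 1.85% for palmitate against elaidate and 0.106% for elaidate against oleate.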
